A study of Mus musculus with 6 samples.

Results

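Conjugating enzymes make drugs, hormones, bilirubin, bile acids and reactive lipids more water-soluble by joining glutathione, glucuronic acid, sulfate or an acetyl group to them. The genes described here were taken by symbol from the deposited table: names that begin with Ugt, Sult or Mgst and a digit, names that begin with Gst, a letter among a, k, m, o, p, t and z, and a digit, and the genes Nat1, Nat2 and Nat8. The rule found 55 of 14499 genes, and no expression value entered it. Among them were 22 glutathione transferases, 17 UDP-glycosyltransferases (7 Ugt1, 8 Ugt2 and 2 Ugt3 genes), 13 sulfotransferases and 3 genes named as acetyltransferases.

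Glutathione transferases are mostly cytosolic enzymes that couple glutathione to electrophiles, and the Mgst enzymes do so in membranes. The Ugt1 and Ugt2 enzymes are glucuronosyltransferases, which sit in the endoplasmic reticulum and use UDP-glucuronic acid, whereas the sulfotransferases described here are mainly cytosolic and use the activated sulfate PAPS. Hepatocytes hold most of these enzymes in the liver, many are induced through the sensors NRF2, AHR, CAR and PXR, and several differ between male and female mice. Conjugates leave the cell through ABC transporters, and part of them reaches the bile.

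The livers came from mice of mixed C57Bl/6; 129Sv background aged 10 weeks, and both groups had received 2 weeks of DDC injury. DDC is a porphyrinogenic compound that damages hepatocytes and bile ducts and is used as a model of cholestatic injury. The wild-type group (WT_DDC) and the group with hepatocyte knockout of Arid1a (Arid1a_KO_DDC) had 3 libraries each, made from total RNA of whole liver. The Arid1a protein is part of BAF, a complex that moves nucleosomes. No uninjured liver is part of the comparison, and the labels name neither the Cre driver nor the deleted exons, nor whether every library came from its own mouse. The p-values therefore measure the spread between these libraries, which may be technical.

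Values are FPKM, that is fragments scaled by transcript length and by the fragments mapped in the library, so levels can be compared between genes. Between 11280 and 11712 genes per library reached 1 FPKM. The depth of the other libraries was estimated at 0.904 to 1.16 of that of wild-type replicate 1, and absolute depth is unknown. For replicates 1, 2 and 3 in that order, Arid1a itself was at 7.85, 5.48 and 5.98 FPKM in wild-type livers, against 6.61, 5.01 and 3.81 FPKM in knockout livers. The order of replicates is the same wherever 3 values per genotype are given. The Arid1a ranges overlap, and a gene-level value that includes other exons and other liver cells does not check the genotype. The 10 hepatocyte markers summed to 43434 to 46284 FPKM in the wild type, against 46161 to 56976 FPKM in the knockout. Most of that sum is Alb, at 26589 to 34012 FPKM over all libraries. Of the 10 markers, 8 had a log2 difference above 0 and 2 below (median 0.11). Of 9 tested biliary and progenitor genes 7 had a log2 difference below 0 (median -0.58), and the tight junction gene Cldn4 was past the threshold used below (-1.42, limma adjusted p = 0.0386). Their sum, 205 to 459 FPKM in the wild type against 270 to 482 FPKM in the knockout, is mostly Spp1. Differences were below 0 in 8 of 10 stellate and fibroblast genes (median -0.48, sums of 205 to 303 against 138 to 225 FPKM), in 8 of 9 macrophage genes (-0.49, 547 to 840 against 378 to 565 FPKM), in 9 of 9 endothelial genes (-0.33, 72.4 to 118 against 45.2 to 103 FPKM) and in 4 of 4 T and NK cell genes (-0.31, 10.9 to 13.8 against 3.15 to 13.2 FPKM). The 5 B and plasma cell genes also lay below 0 (-1.26), and knockout replicates 1 and 3 stood apart, with the immunoglobulin gene Igkc at 17.6 and 22.5 FPKM, against 1478 to 7538 FPKM in the other libraries. Fewer cells of a type and less RNA per cell cannot be told apart in whole liver, and the part of cell composition in the differences below was not tested. A second division of the libraries matters for several conjugating enzymes. Replicate 1 of both genotypes carries the library numbers L0566 and L0567, and the remaining libraries carry L0602 to L0605. Ddx3y, a Y-linked gene, was at 0.0527 and 0.0227 FPKM in the L0566 and L0567 libraries and between 9.27 and 11.3 FPKM in the others. The labels give no sex, and sex and library number cannot be told apart here.

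The conjugating enzymes were among the abundant transcripts of these livers. In all 6 libraries 43 of the 55 genes were at 1 FPKM or more, 17 were at 100 FPKM or more, and Gstm1, Gstm3 and Mgst1 were above 1000 FPKM. By mean FPKM, Gstm1 ranked 14th among all genes of the table, with ranks of 10 to 17 in the single libraries, and Gstm3 ranked 33rd and Mgst1 44th. The glutathione transferases made up most of the summed level, with 19984 ± 2558 FPKM in wild-type livers (SD, n = 3), against 1312 ± 95.8 FPKM for the Ugt genes and 775 ± 282 FPKM for the sulfotransferases. At the low end, Nat1 and Sult2a7 stayed under 1 FPKM in every library, and 7 genes were listed at 0 in at least 1 library. A listed 0 can be a failed estimate, so for such genes the single values are given.

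The genotypes were compared in a limma fit on log2(FPKM + 1), with p-values adjusted over all 11839 genes that reached 1 FPKM in at least 3 libraries and a threshold of 0.05. Adding 1 makes differences of weakly expressed genes smaller than their FPKM ratio. Of the conjugating enzymes 48 met this filter, while Sult2b1, Nat1, Nat8, Sult2a5, Sult2a6, Sult2a7 and Mgst2 did not and were not tested. Gstm2 was past the threshold, with the higher level in knockout livers, and no conjugating enzyme was past it with a lower level. Across all genes tested 0.49% passed, 0.135% with a higher and 0.355% with a lower level. Without adjustment, p was under 0.05 for 13 conjugating enzymes, of which 11 were higher and 2 lower. The shares among all genes tested were 11.1%, 4.65% and 6.5%.

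In 12 of the 48 tested enzymes (25%) every knockout library was above every wild-type library, and in 2 (4.17%) every knockout library was below. Among all genes tested the shares were 7.09% and 9.56%. Of the 12 genes, 8 were glutathione transferases, 2 were Ugt genes (Ugt1a5 and Ugt3a2) and 2 were sulfotransferases. The log2 difference was above 0 in 68.8% of the 48, and its median was 0.18. All genes tested had a difference above 0 in 50.6% and a median of 0.0034. The higher count depends on the scaling. As shares of each library's summed FPKM, 4 enzymes were higher without overlap (8.33%, against 2.19% of all genes tested) and 2 lower. Those sums ran from 827544 in wild-type replicate 1 to 1703325 in wild-type replicate 2, and a single gene, mt-Atp8, made up 10.7% and 49.5% of them. With mt-Atp8 left out of the sums, 11 enzymes were higher (22.9%, against 5.46%) and 2 lower. Both scalings were added after the values were seen. Several of these enzymes are neighbours or close copies, so they are not independent of each other. With 3 libraries per genotype the smallest p of an exact two-sided permutation test is 0.1, which every gene without overlap reaches.

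**Figure D1:**
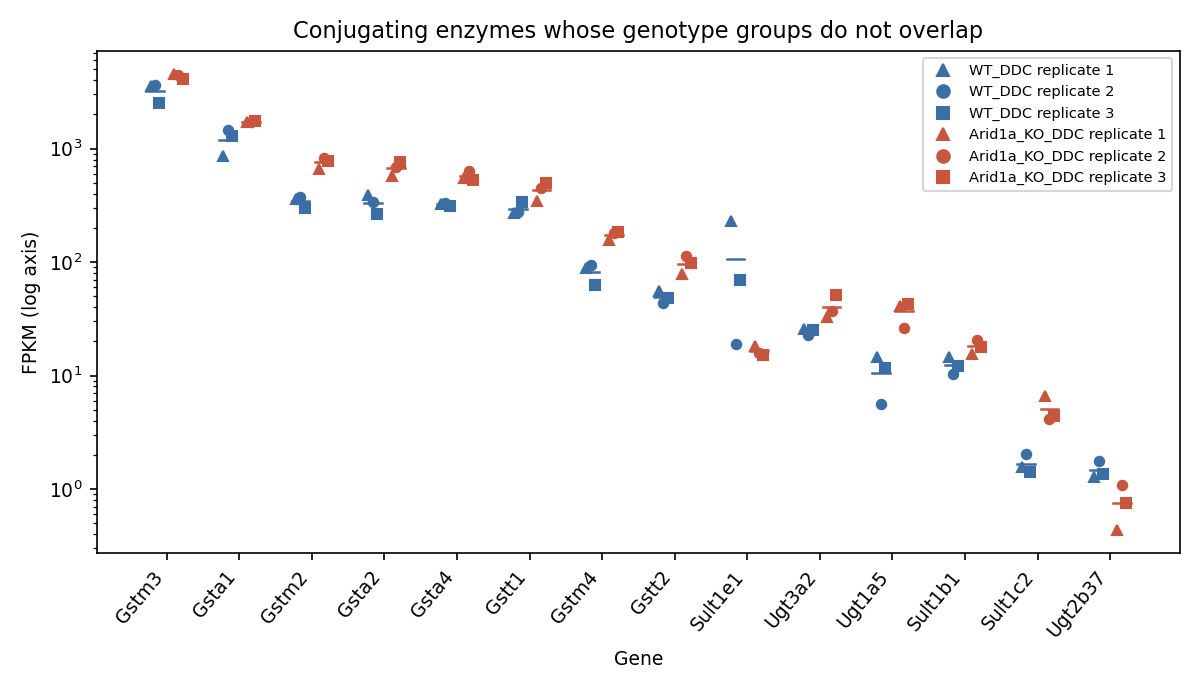
FPKM (log axis) in each library of the 14 conjugating enzymes whose wild-type (blue) and knockout (red) libraries do not overlap, with symbols for the replicate and bars for the group means. In 12 genes the knockout libraries lie above the wild-type ones, and in Sult1e1 and Ugt2b37 they lie below.

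**Figure D2:**
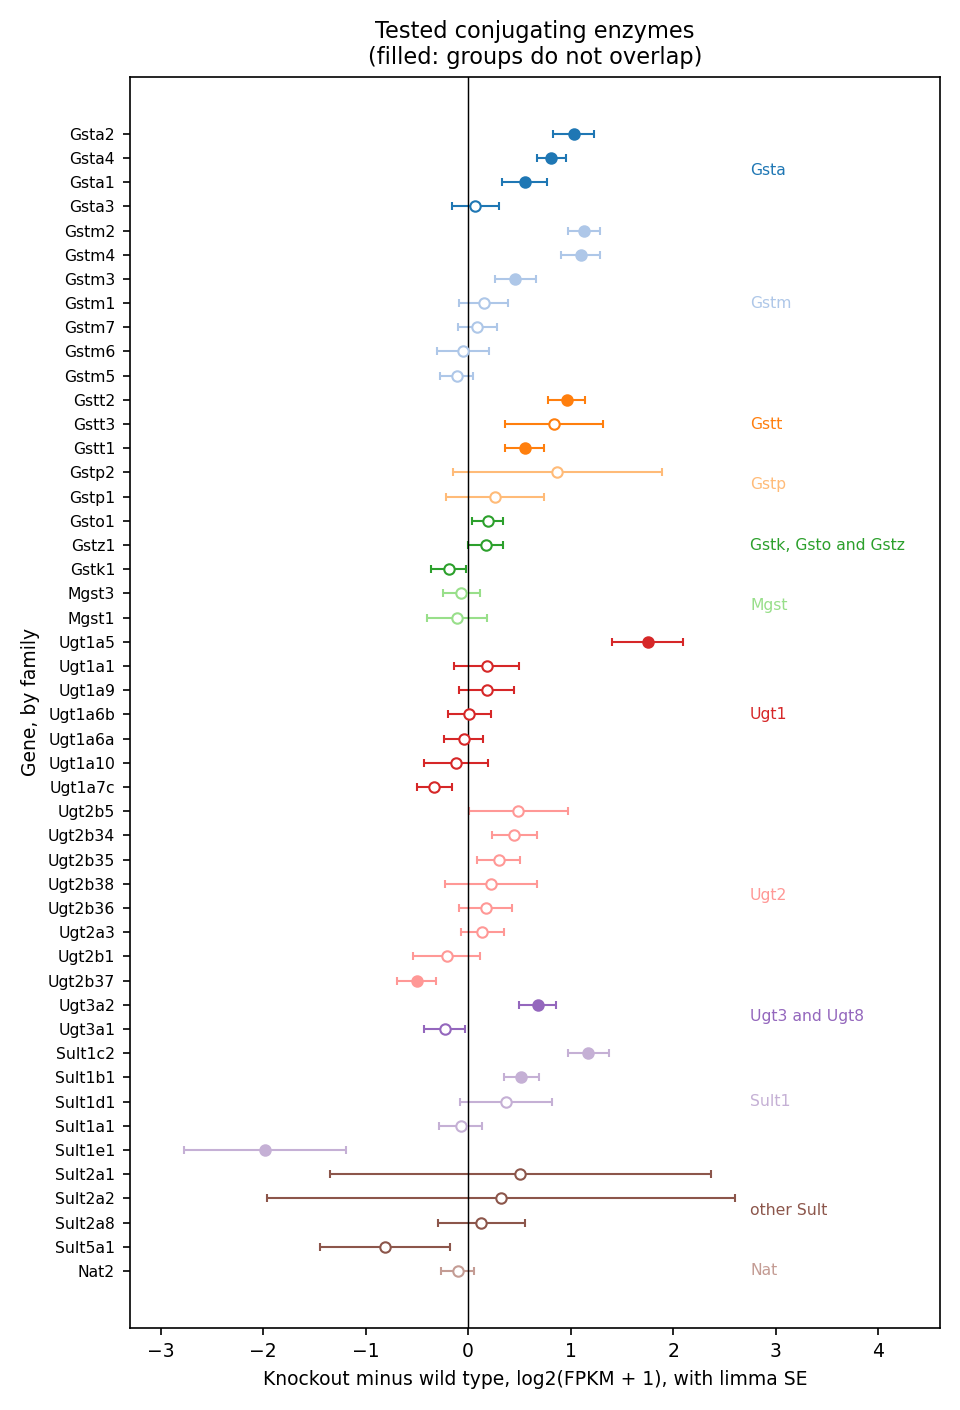
Knockout minus wild type on the log2(FPKM + 1) scale with limma standard errors for the 48 tested enzymes, ordered by family, with filled points where the groups do not overlap. The values run from -1.98 for Sult1e1 to 1.75 for Ugt1a5, and the wide bars of Sult2a1, Sult2a2 and Gstp2 come with large differences within each genotype.

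The mu-class glutathione transferases (Gstm) act on epoxides, aromatic electrophiles and products of lipid peroxidation. Their 7 genes lie side by side on mouse chromosome 3 (GRCm38, 107895821 to 108044894), in the order Gstm5, Gstm7, Gstm6, Gstm3, Gstm2, Gstm1 and Gstm4. Gstm2, the gene past the threshold, is protein coding and lies on the minus strand at 107981702 to 107986453. The promoters of Gstm2, Gstm4 and Gstm1 are shown because Gstm2 and Gstm4 had the largest differences of the 7 genes, while the groups of Gstm1, which lies between them, overlapped. They are RefSeq sequences of GRCm38.p6 on the gene's strand, from 250 bases before the start of transcription, ended where an annotated exon begins. Capitals mark matches to the motifs searched.
Gstm2 (chr3:107986454-107986670, minus strand): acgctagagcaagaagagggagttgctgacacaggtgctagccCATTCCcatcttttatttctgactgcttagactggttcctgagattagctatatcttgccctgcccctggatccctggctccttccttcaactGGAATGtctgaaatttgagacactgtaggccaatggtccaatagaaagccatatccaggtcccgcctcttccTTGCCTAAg
Gstm4 (chr3:108044895-108045109, minus strand): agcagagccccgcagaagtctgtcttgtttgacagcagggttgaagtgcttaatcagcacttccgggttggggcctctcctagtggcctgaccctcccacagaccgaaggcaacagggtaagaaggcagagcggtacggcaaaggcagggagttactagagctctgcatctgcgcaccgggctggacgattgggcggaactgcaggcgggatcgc
Gstm1 (chr3:108017974-108018223, minus strand): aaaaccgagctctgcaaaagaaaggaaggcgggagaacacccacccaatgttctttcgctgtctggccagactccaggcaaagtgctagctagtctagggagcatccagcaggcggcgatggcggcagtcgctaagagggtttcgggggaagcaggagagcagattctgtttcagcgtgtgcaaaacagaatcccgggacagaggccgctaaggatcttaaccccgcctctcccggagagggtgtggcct
In the Gstm2 window the letters of a TEAD site (GGAATG) occurred at 2 places, starting at positions -207 (as CATTCC on the other strand) and -114 relative to the start of transcription, and those of a C/EBP site (TTGCNNAA) occurred at -42. TEAD factors are the DNA-binding partners of YAP. At least 1 TEAD match was found in 12.6% and a C/EBP match in 9.56% of 32851 mouse promoter windows of 250 bases, searched on both strands. The Gstm4 and Gstm1 windows held none of the 7 motifs searched. No factor binding was measured, so these matches describe letters.

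Gstm2 was at 360, 375 and 302 FPKM in replicates 1, 2 and 3 of the wild type, against 665, 828 and 775 FPKM in those of the knockout. The lowest knockout library thus stood well above the highest wild-type library. Knockout exceeded wild type by 1.13 on the log2 scale (SE 0.16, limma adjusted p = 0.0486), a ratio of the means of 2.19. Leaving out wild-type replicate 1, 2 or 3 or knockout replicate 2 or 3 brought the adjusted p to 0.0916, 0.149, 0.202, 0.168 and 0.196, and without knockout replicate 1 it was 0.0481. Gstm4 showed a difference of the same size without passing the threshold. Its levels were 87.8, 94.8 and 62.2 FPKM in wild-type and 157, 179 and 184 FPKM in knockout livers, a log2 difference of 1.10 (SE 0.19, limma adjusted p = 0.0853). Gstm3 was at 3562, 3609 and 2535 FPKM in wild-type and 4587, 4434 and 4144 FPKM in knockout livers. Here too the groups did not overlap, but the log2 difference was 0.46 (SE 0.20, adjusted p = 0.477).

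Gstm1 was the most abundant conjugating enzyme, at 7894, 10046 and 6780 FPKM in wild-type and 7517, 10163 and 9669 FPKM in knockout livers. Its groups overlapped, and the log2 difference was 0.15 (SE 0.24, adjusted p = 0.852). Set against this neighbour, Gstm2 stood at 4.56%, 3.73% and 4.46% of the Gstm1 level in wild-type and at 8.84%, 8.15% and 8.02% in knockout livers. The pair was chosen after the values were seen, and the exact two-sided permutation p was 0.1, the smallest possible. Gstm4 as a share of Gstm1 went from 0.991% ± 0.106 to 1.92% ± 0.164 (SD, n = 3 each; exact permutation p = 0.1). The 3 genes at the other end of the cluster had overlapping groups: Gstm5 was between 24.8 and 34.6 FPKM, Gstm6 between 49.6 and 82.1 FPKM and Gstm7 between 64 and 96.7 FPKM over all libraries. Their log2 differences were -0.11, -0.049 and 0.088. Reads from close copies limit these values unequally. Of all stretches of 50 bases in the annotated transcripts, 8.3% of those of Gstm2 and 0% of those of Gstm4 also occurred in another gene, against 19.9% for Gstm1 and 28.8% for Gstm3.

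The alpha-class enzymes (Gsta) reduce lipid hydroperoxides and bind bilirubin and bile acids, and Gsta4 is known for its activity on the lipid aldehyde 4-hydroxynonenal. Gsta4, Gsta1 and Gsta2 lie together on chromosome 9 (78182774 to 78355788), and Gsta3 lies apart on chromosome 1 (21240589 to 21265661). The 3 clustered genes had higher levels in every knockout library than in any wild-type library, and Gsta3 did not. None of the 4 passed the threshold. Gsta4 was at 326, 333 and 315 FPKM in wild-type and 552, 632 and 530 FPKM in knockout livers (log2 difference 0.81, SE 0.14, adjusted p = 0.0827). Its wild-type libraries lay close together, with an SD of 8.83 FPKM around 325 FPKM. Gsta2 was at 391, 335 and 265 FPKM in wild-type and 573, 685 and 755 FPKM in knockout livers, a log2 difference of 1.03 (SE 0.20, adjusted p = 0.108). Gsta1 was at 868, 1451 and 1284 FPKM in wild-type and at 1711, 1706 and 1751 FPKM in knockout livers (0.55, SE 0.22, adjusted p = 0.426). The knockout libraries of Gsta1 were nearly equal, and the spread lay in wild-type replicate 1. Gsta3 was at 1012, 973 and 1257 FPKM in wild-type and 835, 1245 and 1376 FPKM in knockout livers, with a log2 difference of 0.07 (SE 0.23, adjusted p = 0.936).

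Gsta1 and Gsta2 cannot be read as wholly separate genes. Of the 50-base stretches of Gsta1, 89.7% occurred in another gene, and 82.9% occurred in the predicted gene Gm3776. For Gsta2 the share was 47.4%, whereas Gsta4 and Gsta3 shared none. Gm10639, another look-alike of this family, was at 105.5, 37.1 and 135 FPKM in wild-type and 302, 45 and 222 FPKM in knockout livers. Gsta4 as a share of Gsta3, a pair chosen after the values were seen, was 32.2%, 34.2% and 25.1% in wild-type and 66.1%, 50.8% and 38.5% in knockout livers (exact permutation p = 0.1). Summed over the 4 genes, the alpha class stood at 2936 ± 294 FPKM in the wild type and reached 4117 ± 393 FPKM in the knockout (SD, n = 3 each). As a share of each library's summed FPKM it was 0.314%, 0.181% and 0.219% in the wild type and 0.293%, 0.285% and 0.305% in the knockout, so the groups overlapped on that scale. With the mitochondrial gene mt-Atp8 left out of the sum, the shares were 0.351%, 0.359% and 0.374% against 0.512%, 0.446% and 0.475%, and the groups were separate.

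The theta-class enzymes (Gstt) act on small halogenated compounds and sulfate esters, and their 3 genes lie on chromosome 10 (75774115 to 75837424). Gstt2 was at 55.1, 43.3 and 48 FPKM in wild-type and 78.2, 113.5 and 98.1 FPKM in knockout livers (log2 difference 0.96, SE 0.18, adjusted p = 0.102). Gstt1 was at 269, 275 and 335 FPKM against 343, 452 and 502 FPKM (0.55, SE 0.19, adjusted p = 0.354). Both sets of libraries were separate, although the lowest knockout value of Gstt1 was just above the highest wild-type value. Gstt3 behaved unevenly, with 148, 36.9 and 47.5 FPKM in wild-type and 108, 105.2 and 134 FPKM in knockout livers. Knockout was below wild type in replicate 1 and above it in replicates 2 and 3, and the log2 difference was 0.84 (SE 0.48, adjusted p = 0.587). Hardly any 50-base stretch of Gstt1 (0%) and Gstt2 (0.682%) occurred in another gene, against 20.6% for Gstt3.

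The other glutathione transferases had overlapping groups. Gstk1, a mitochondrial and peroxisomal enzyme, was between 92.7 and 142 FPKM over the 6 libraries. Gsto1, which reduces glutathione mixed disulfides, was between 65.7 and 94.9 FPKM, and Gstz1, which acts in tyrosine breakdown, was between 276 and 383 FPKM. Their log2 differences were -0.19, 0.19 and 0.17 (adjusted p of 0.719, 0.705 and 0.756). Mgst1, the abundant microsomal enzyme, was at 2497, 2915 and 2855 FPKM in wild-type and 1657, 2989 and 3346 FPKM in knockout livers, with the lowest value in knockout replicate 1 (log2 difference -0.11, adjusted p = 0.918). Mgst3 was between 42.5 and 63.4 FPKM with a difference of -0.066. Mgst2 was listed at 2.35, 0.888 and 0.226 FPKM in wild-type and at 0, 1.08 and 0.268 FPKM in knockout livers. The pi-class genes Gstp1 and Gstp2 varied more between libraries of 1 genotype than between genotypes, and are taken up with the library numbers.

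**Figure D3:**
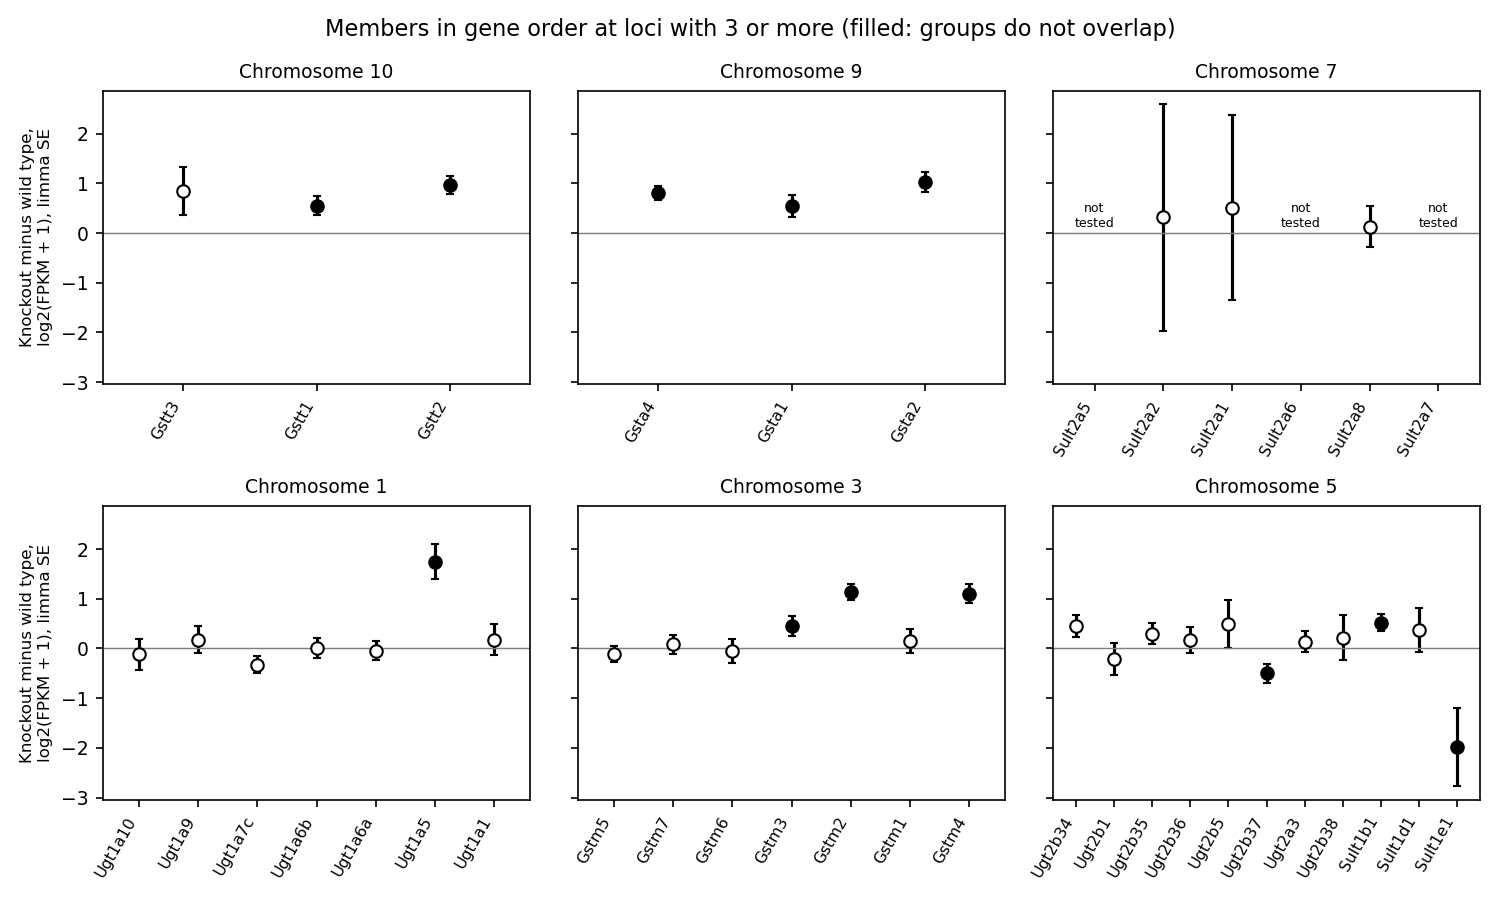
Knockout minus wild type on the log2(FPKM + 1) scale with limma standard errors for the conjugating enzymes at the 6 loci with 3 or more of them, in gene order along the chromosome and not to scale by distance. Filled points mark genes whose groups do not overlap, such as Gstm3, Gstm2 and Gstm4 on chromosome 3, and Ugt1a5 stands out on chromosome 1 at 1.75.

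The Ugt1 genes glucuronidate bilirubin, phenols and many drugs. They share their last exons and differ in the first, and 7 of them were listed over chromosome 1 at 88055388 to 88220002. Ugt1a5 was at 14.5, 5.64 and 11.7 FPKM in wild-type and 41.3, 26.2 and 42.5 FPKM in knockout livers, so that the lowest knockout library exceeded the highest wild-type library. Its ratio of means was 3.46 and its log2 difference 1.75 (SE 0.35), with an adjusted p of 0.119. Ugt1a1, the bilirubin-conjugating enzyme, was at 250, 104.01 and 136 FPKM in wild-type and 145, 185 and 191 FPKM in knockout livers. As with Gstt3, wild-type replicate 1 was the highest library, and the log2 difference was 0.18 (SE 0.32, adjusted p = 0.878). Ugt1a9 was at 167, 317 and 256 FPKM against 233, 248 and 344 FPKM, with a difference of 0.18. Ugt1a7c lay between 4.3 and 6.8 FPKM in wild-type and 4.14 and 4.32 FPKM in knockout livers (-0.33, adjusted p = 0.543). Ugt1a6a and Ugt1a6b were between 30.6 and 52.9 FPKM with differences of -0.043 and 0.0093, and Ugt1a10 was between 0.229 and 1.71 FPKM. Because of the shared exons 64% of the 50-base stretches of Ugt1a5 and 58.2% of those of Ugt1a1 occurred in another gene, so the split of reads between these genes is uncertain. The summed Ugt1 level was 507 ± 10.8 FPKM in the wild type, against 571 ± 103 FPKM in the knockout (SD, n = 3 each).

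The start of Ugt1a5 is shown because this gene had the highest log2 difference, knockout minus wild type, of the 48 tested enzymes. Capitals mark a match to the xenobiotic response element (TNGCGTG), the letters bound by AHR.
Ugt1a5 (chr1:88165762-88166011, plus strand): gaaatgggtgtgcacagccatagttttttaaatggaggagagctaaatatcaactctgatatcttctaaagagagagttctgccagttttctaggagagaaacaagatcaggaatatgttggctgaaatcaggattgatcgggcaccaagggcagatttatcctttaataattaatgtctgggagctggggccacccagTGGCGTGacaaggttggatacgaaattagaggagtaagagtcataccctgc
The match began at -51. Such a match was found in 4.1% of all promoter windows, and among the 46 conjugating enzymes with a RefSeq promoter also in Gsta2 and Sult1d1. The antioxidant response element (TGACNNNGC), the site class of NRF2, was matched in 10.2% of all windows and in those of Gsta3, Gstm5, Gstm7 and Mgst1. Each of these 4 genes had overlapping groups, with log2 differences of 0.07, -0.11, 0.088 and -0.11. The search covered only the 250 bases before the start of transcription, and whether NRF2 acts on any of the enzymes was not tested. A STAT site (TTCNNNGAA) was matched in 3 of the 46 genes and 7.02% of all windows, a C/EBP site in 7 genes and a TEAD site in 7 genes. The stricter HNF1 letters (GTTAAT and ATTAAC with 1 base between) and HNF4 letters (AGGTCA at 2 places with 1 base between) were in 0 of the 46 genes and in 0.00913% and 0.0335% of all windows. Matches on either strand were counted, and motifs were allowed to overlap each other.

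The Ugt2 enzymes glucuronidate steroids, bile acids and fatty acids, and 8 genes were listed on chromosome 5 (86889767 to 87591594, a stretch that also holds Sult1b1, Sult1d1 and Sult1e1). None differed between the genotypes past the threshold, and 6 of the 8 had a log2 difference above 0. Ugt2b36 was the most abundant, at 250, 310 and 285 FPKM in wild-type and 216, 337 and 429 FPKM in knockout livers (0.17). Ugt2b5 was at 103, 236 and 169 FPKM against 114, 284 and 353 FPKM (0.49, adjusted p = 0.749). Within both genotypes replicate 1 was lowest for these genes. Ugt2b34 lay between 114 and 133 FPKM in wild-type and between 124 and 204 FPKM in knockout livers (0.45, adjusted p = 0.5). Ugt2b35, Ugt2a3 and Ugt2b1 were between 38.3 and 93.7 FPKM with differences of 0.30, 0.14 and -0.21, and Ugt2b38 was between 7.88 and 28.9 FPKM with a difference of 0.22. The weakly expressed Ugt2b37 was the exception in direction without overlap: 1.28, 1.76 and 1.36 FPKM in wild-type and 0.434, 1.08 and 0.758 FPKM in knockout livers (-0.50, SE 0.19, adjusted p = 0.41). Some of these genes too are close copies. Of the 50-base stretches, 41.7% of Ugt2b5, 37.4% of Ugt2b38 and 18.3% of Ugt2b37 were found in another gene. The remaining Ugt2 genes shared few, from 0% for Ugt2b1 and 0.31% for Ugt2b36 to 4.55% for Ugt2a3.

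Ugt3 enzymes use other UDP-sugars than glucuronic acid. Ugt3a2 was at 25.7, 22.7 and 25.1 FPKM in wild-type and 33.1, 37.3 and 50.8 FPKM in knockout livers. The groups were separate, and the log2 difference was 0.68 (SE 0.18, adjusted p = 0.24). Its relative Ugt3a1 was between 1.73 and 3.44 FPKM over all libraries, with a difference of -0.23.

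Sulfotransferases of the Sult1 group act on phenols, catechols, thyroid hormone and estrogens. Sult1c2 was at 1.55, 2.03 and 1.4 FPKM in wild-type and 6.55, 4.16 and 4.38 FPKM in knockout livers, a low but separate level. The ratio of its means was 3.03 and its log2 difference 1.17 (SE 0.20, adjusted p = 0.0827). Sult1b1, which sulfates thyroid hormone, was at 14.5, 10.3 and 12.1 FPKM against 15.6, 20.5 and 18 FPKM (0.52, SE 0.17, adjusted p = 0.336). Hardly any 50-base stretch of these genes occurred elsewhere (0.723% for Sult1c2 and 0% for Sult1b1). Sult1e1, the estrogen sulfotransferase, differed in the other direction. It was at 228, 18.9 and 70.1 FPKM in wild-type and 18.3, 15.9 and 15.2 FPKM in knockout livers. All 3 knockout libraries were low, the wild-type libraries were widely spread, and wild-type replicate 2 was just above the highest knockout library. The log2 difference was -1.98 with a large error (SE 0.79, adjusted p = 0.426), and it was -1.11 without wild-type replicate 1 and -2.87 without wild-type replicate 2. Sult1a1, the main phenol sulfotransferase, was at 482, 364 and 602.4 FPKM in wild-type and 421, 475 and 456 FPKM in knockout livers (-0.071, adjusted p = 0.926). Sult1d1 was at 46.3, 81.1 and 97 FPKM against 48.9, 106.2 and 153 FPKM (0.37, adjusted p = 0.802), again lowest in replicate 1 of each genotype.

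The Sult2a enzymes sulfate bile acids and hydroxysteroids such as DHEA, and in mice their transcripts are known to be higher in female liver. Their 6 genes lie on chromosome 7 (13623967 to 14494230). The promoters of Sult2a5 and Sult2a6 are shown because these genes followed the library numbers and because their starts resemble each other. None of the 7 motifs was matched in them, so no letters are in capitals.
Sult2a5 (chr7:13623717-13623966, plus strand): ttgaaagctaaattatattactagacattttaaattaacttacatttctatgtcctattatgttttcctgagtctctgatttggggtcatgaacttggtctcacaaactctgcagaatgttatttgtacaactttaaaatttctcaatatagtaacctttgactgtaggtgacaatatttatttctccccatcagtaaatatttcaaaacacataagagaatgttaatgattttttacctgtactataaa
Sult2a6 (chr7:14254871-14255120, minus strand): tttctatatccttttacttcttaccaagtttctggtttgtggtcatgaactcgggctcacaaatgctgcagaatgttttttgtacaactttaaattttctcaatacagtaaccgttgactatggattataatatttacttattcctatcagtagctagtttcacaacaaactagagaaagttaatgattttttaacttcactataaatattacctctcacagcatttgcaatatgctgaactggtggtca
In a local alignment 168 of 207 columns were identical (81.2%). The other 14 pairs among the 6 promoters printed aligned over 26 columns at most.

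In replicate 1, Sult2a2 reached 172 FPKM in the wild-type library and 87.9 FPKM in the knockout library. In replicates 2 and 3 it was listed at 0 and 0.464 FPKM in wild-type and at 2.54 and 0.551 FPKM in knockout livers. Sult2a1 was at 52.7 and 38.8 FPKM in the replicate 1 libraries, and at 0 and 0.0944 FPKM in the other wild-type and 2.8 and 0.112 FPKM in the other knockout libraries. Both genes were thus present in the L0566 and L0567 libraries of either genotype and nearly absent from the rest. A limma fit with terms for genotype and library number gave a log2 difference of 6.20 (SE 0.53, adjusted p = 0.0395) for Sult2a2 and of 4.98 (SE 0.55, adjusted p = 0.0534) for Sult2a1, L0566 and L0567 minus the others. Sult2a2 was the 1 conjugating enzyme past the threshold in that comparison, which 0.127% of all genes tested passed (0.0422% higher and 0.0845% lower). Without wild-type replicate 1, 2 or 3 its adjusted p was 0.118, 0.0687 and 0.151, without knockout replicate 1 or 3 it was 0.0536 and 0.126, and without knockout replicate 2 it was 0.035. The fitted sizes depend on the 1 FPKM added, since several libraries are listed at or near 0. With 0.1 FPKM added Sult2a2 differed by 7.78 (adjusted p = 0.0755).

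Sult2a5 and Sult2a6 had the same order but passed 1 FPKM in too few libraries to be tested. Sult2a5 was at 32.8 and 14.9 FPKM in replicate 1 and at 0, 0.091, 0.7 and 0.108 FPKM elsewhere. Sult2a6 was at 13.9 and 10.4 FPKM in replicate 1 and at 0, 0, 0.79 and 0.244 FPKM elsewhere. In the same fit without a filter on low values, over 14285 genes, their differences were 4.27 (SE 0.37, adjusted p = 0.0404) and 3.42 (SE 0.27, adjusted p = 0.0338). Their transcripts overlap in part, with 62.1% of the 50-base stretches of Sult2a2, 33.2% of Sult2a1, 34.5% of Sult2a5 and 6.63% of Sult2a6 found in another gene. The remaining genes of the locus did not share the pattern. Sult2a8 was at 3.82, 1.65 and 5.69 FPKM in wild-type and 1.96, 4.67 and 5.68 FPKM in knockout livers, and Sult2a7 was at most 0.822 FPKM. Outside the locus, Sult2b1, a cholesterol sulfotransferase, was at 0.924, 0.733 and 0.38 FPKM in wild-type and 0.141, 0.167 and 1.35 FPKM in knockout livers, and was not tested.

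The acetyltransferases transfer acetyl groups from acetyl-CoA to arylamines and, for Nat8, to cysteine conjugates that arise from glutathione conjugates. Nat2 was at 8.63, 12.4 and 10.7 FPKM in wild-type and 8.98, 10.3 and 10 FPKM in knockout livers (log2 difference -0.10, adjusted p = 0.867). Nat8 was at 0.794, 1.71 and 2.89 FPKM against 0.152, 0.635 and 0.785 FPKM, and Nat1 was between 0.214 and 0.583 FPKM over all libraries. Nat8 was thus low in both genotypes with the groups separated by little, and neither it nor Nat1 was tested.

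In the opposite direction to the Sult2a genes, several enzymes were lower in the L0566 and L0567 libraries without passing the threshold. Gstp1, a pi-class transferase known to be higher in male mouse liver, was at 563 and 851 FPKM there and between 1292 and 2012 FPKM in the other libraries (log2 difference -1.17, SE 0.24, adjusted p = 0.105). Gstp2 was at 1.53 and 9.57 FPKM there and between 19 and 39.6 FPKM in the others (-2.60, SE 0.48, adjusted p = 0.102). Many of the 50-base stretches of each Gstp gene occur in another gene (51% for Gstp1 and 50.4% for Gstp2). Ugt2b5 and Sult1d1, whose values are given above, differed by -1.21 (SE 0.21) and -1.14 (SE 0.20), each with an adjusted p of 0.0949. Sult5a1 was at 0.598 FPKM and 0 in replicate 1 and between 1.38 and 6.73 FPKM in the others (-1.44, adjusted p = 0.143). Over the 48 tested enzymes the sets of libraries did not overlap in 16 (33.3%), 3 higher and 13 lower in L0566 and L0567, against 28.4% of all genes tested. By direction the shares were 6.25% higher and 27.1% lower, against 11.3% and 17.2% of all genes tested. Of 14 tested genes listed as male-biased, 12 did not overlap between these sets of libraries. The 4 past the threshold, Ddx3y, Eif2s3y, Kdm5d and Uty, are Y-linked, and none of the other genes of that list was past it (lowest adjusted p = 0.0569, for C6). Of 5 tested genes listed as female-biased, 2 did not overlap and none was past the threshold. Prlr was higher in L0566 and L0567 (0.92, adjusted p = 0.22) and Cyp2a4 was lower (-1.03, adjusted p = 0.105). Cux2, a regulator known to be higher in female liver, was not tested. It was at 2.91 and 2.88 FPKM in L0566 and L0567 and between 0.311 and 0.55 FPKM in the others.

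**Figure D4:**
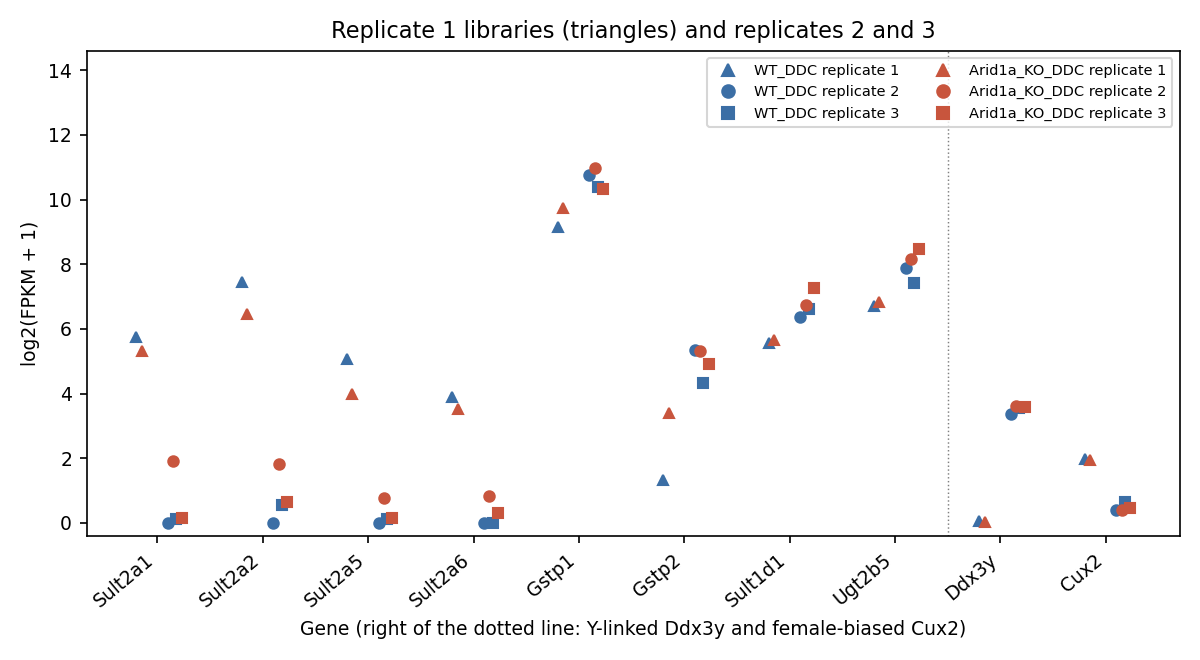
Level as log2(FPKM + 1) in each library of 8 conjugating enzymes and, right of the dotted line, Ddx3y and Cux2, with triangles for replicate 1 (library numbers L0566 and L0567). The triangles of both genotypes lie above the other libraries for the 4 Sult2a genes and Cux2, and below them for Gstp1, Gstp2, Sult1d1, Ugt2b5 and Ddx3y.

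Whether the difference between the genotypes depended on the library number was tested with an interaction term, which rests on 1 library per genotype for L0566 and L0567. No conjugating enzyme passed (lowest adjusted p = 0.394), nor did any other gene (0%), and 6 of the 48 had an unadjusted p under 0.05 against 9.05% of all genes tested. Gstt3 and Ugt1a1 had the smallest p among the enzymes: the genotype difference in replicate 1 minus that in the others was -1.93 (SE 0.35, limma unadjusted p = 0.00279) and -1.44 (SE 0.30, unadjusted p = 0.00513). The L0602 to L0605 libraries all expressed Ddx3y, and in them 24 of the 48 enzymes (50%) were higher in knockout without overlap and 5 (10.4%) lower. For all genes tested both shares were 25.9%. This subset was added after the values were seen.

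Genes that supply, clear or regulate conjugation, and conjugating enzymes of other classes, did not pass the threshold in any of 7 lists. The 13 tested genes of glutathione supply and recycling had a median log2 difference of -0.065, with 6 above 0 and 7 below. Smallest in p were Mat1a at -0.88, Esd at 0.47 and Gsr at 0.54 (adjusted p of 0.43, 0.444 and 0.451). Gclc, the rate-limiting enzyme of glutathione synthesis, had overlapping groups. It was at 115 ± 28.4 FPKM in the wild type against 144 ± 31.6 FPKM in the knockout (SD, n = 3 each). The 11 genes of glutathione and mercapturate breakdown had a median of 0.094, with 7 above 0 and 4 below. By p, Acy3, Cndp2 and Ccbl1 came first, at 1.01, -0.42 and 1.39 (adjusted p of 0.163, 0.292 and 0.418). Groups did not overlap in 3 of the 11, against 16.6% of all genes tested. Of the 3, Acy3 and Acy1 were higher in knockout and Cndp2 was lower. In the 9 genes that make or remove UDP-glucuronate the median was 0.23, and Ugp2, which makes UDP-glucose, was at 150, 171 and 141 FPKM in wild-type and 255, 269 and 347 FPKM in knockout livers. The groups of Ugp2 were separate, with a log2 difference of 0.90 (SE 0.17, adjusted p = 0.102). Gusb, the lysosomal enzyme that cleaves glucuronides, differed by -0.41 with separate groups (adjusted p = 0.309), Slc35d1, which carries UDP-glucuronate into the endoplasmic reticulum, by 0.34 (adjusted p = 0.562), and Ugdh, which makes UDP-glucuronate from UDP-glucose, by 0.36 (adjusted p = 0.612). The 10 genes of sulfate donor supply had a median of -0.037, with 5 above 0 and 5 below. Slc26a1, Bpnt1 and the PAPS synthase Papss2 had the smallest p, at 0.50, 0.37 and 0.41 (adjusted p of 0.231, 0.478 and 0.506). The groups of Slc26a1 and Bpnt1 were separate.

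Among 10 efflux transporters the median was -0.034. Abcc3, which exports glucuronides across the basolateral membrane, was at 184, 199 and 172 FPKM in wild-type and 88.3, 103 and 125 FPKM in knockout livers, a difference of -0.82 (adjusted p = 0.126). Abcc4, a basolateral exporter of sulfated steroids and bile acids, was at 6.03, 2.39 and 2.31 FPKM against 9.97, 7.7 and 7.11 FPKM (1.10, adjusted p = 0.265). Both pairs of groups were separate, in opposite directions. The 17 transcription factors of drug response had a median of 0.023, with Bach1, a repressor of NRF2 targets, at -0.35 (adjusted p = 0.465). The 14 other conjugating enzymes had a median of 0.069. Inmt, an N-methyltransferase in that list, was at 101, 27.4 and 44 FPKM in wild-type and 248, 287 and 250 FPKM in knockout livers (2.37, SE 0.43, adjusted p = 0.0982).

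Genes with a known place along the liver lobule were set beside these values, because several glutathione transferases are most abundant near the central vein. The 11 tested pericentral genes had a median log2 difference of -0.27, with 4 above 0 and 7 below. The glutamate transporter Slc1a2 was at -2.15 (adjusted p = 0.0662) and Oat, an ornithine aminotransferase, at -1.55 (adjusted p = 0.0738). The 12 periportal genes had a median of 0.12, with 9 above 0 and 3 below. The aldehyde dehydrogenase Aldh1b1 was at 0.95 (adjusted p = 0.102). Cdh1 lay in the other direction at -0.67 (adjusted p = 0.27), and the groups of both genes were separate. Neither list held a gene past the threshold, and the part of zonation in the levels of conjugating enzymes was not tested.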

How the data were processed

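Gene levels came as log2 FPKM in a table that the authors deposited, with 14499 genes in 6 libraries. The submitters' processing notes name TopHat2 2.0.6, Cufflinks, mm10 and GRCm38; the annotation behind the table is not given in the sources used here. A deposited log2 value of -10 stands for an FPKM of 0, since an offset of 0.000977 had been added, and this offset was subtracted. FPKM were tested as log2(FPKM + 1) with limma 3.58.1 in R 4.3.3 (trend, two-sided, Benjamini-Hochberg over 11839 genes), for genes at 1 FPKM or more in at least 3 libraries. Errors are SD or limma SE. The members, lists and library-number comparison were chosen with earlier results of these data known. Per family, the 2 most abundant members, up to 3 more by smallest p and all past the threshold are given in full. Per list, up to 3 genes are given by smallest p, and for some lists none. Gclc, Ugdh, Ces1f, Gm10639, mt-Atp8, Spp1, the Y-linked genes, C6, Cux2 and the members described for their library-number difference were chosen after their values were seen. So were Srxn1, Txnrd1, Tiparp, Hmox1, Alb, Acy1, Prlr and Cyp2a4. Shared 50-base stretches are from GENCODE M21 transcripts (GRCm38), promoters from RefSeq (GRCm38.p6), which had 46 of the 55 genes; local alignment used biopython 1.88. On simulated data for knockout against wild type (11839 genes), 47 of 100 genes changed by 1 log2 unit and 94 of 100 changed by 2 were recovered. The changed genes were drawn from the better expressed genes only, and the noise was normal and independent between libraries. These rates therefore do not cover weakly expressed genes or the library-number split. Counting intervals are not given because the fragment number is unknown. Alternatives covered the pseudocount, filter, scaling, eBayes settings, a replicate block, a library-number term, replicates 2 and 3 alone, and each library left out.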

Additional observations from a re-analysis of the deposited data

How the results depend on the processing

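Gstm2 kept a log2 difference of 1.01 to 1.25 over 17 alternatives, but passed the threshold in 6 of them, with adjusted p from 0.0397 to 0.202. The number of conjugating enzymes higher in knockout, 1 as reported, was 0 with a pseudocount of 0.1 or 5, no filter, quantile normalization, the replicate block or replicates 2 and 3 alone, and 0 to 1 with 1 library left out. Over all genes the 16 higher calls became 10 without a filter, 33 with a library-number term, 26 in replicates 2 and 3 alone and 0 to 30 with 1 library left out, and the 42 lower calls became 0 to 40 with 1 library left out. With the replicate block 0 genes were higher and 0 lower, and Gstm2 had an adjusted p of 0.0885. The labels do not say whether same-numbered libraries are pairs. Deviations of same-numbered libraries from their group means correlated at 0.346, 0.133 and 0.0212. Knockout replicate 1 correlated best with its own number, and knockout replicates 2 and 3 with another number. With 3 libraries per group these correlations cannot decide whether the samples are paired. In the library-number comparison the 1 higher enzyme became 0 with a pseudocount of 0.1 or a filter at 5 FPKM, 2 with a pseudocount of 5 or quantile normalization, 3 without a filter, and 0 to 2 with 1 library left out; Sult2a1 passed with a pseudocount of 5 (3.15, adjusted p = 0.0192), with quantile normalization (5.04, 0.0448) and without knockout replicate 2 (5.46, 0.0114). The count of enzymes without overlap was 24 higher and 5 lower in replicates 2 and 3 alone, and 4 higher and 2 lower as shares of summed FPKM, both added after seeing the data. For knockout minus wild type, 648 of 688 pairs of an enzyme and an alternative kept direction and side of the threshold, and 15 of 41 enzymes changed sign somewhere, none of them called. Quantile normalization gave -0.01 for Gsta3, -0.042 for Gstm1 and 0.016 for Ugt1a10; replicates 2 and 3 alone gave 0.13 for Mgst1 and 0.044 for Ugt1a10; a pseudocount of 5 gave -0.10 for Sult2a2. With 1 library left out the range was -0.075 to 0.29 for Gsta3, -0.21 to 0.59 for Gstp1, -0.29 to 1.71 for Gstp2, -0.31 to 0.20 for Mgst1, -0.19 to 0.09 for Mgst3, -0.22 to 0.018 for Nat2, -0.26 to 0.10 for Sult1a1, -0.92 to 2.40 for Sult2a1, -1.43 to 2.70 for Sult2a2, -0.24 to 0.48 for Sult2a8, -0.10 to 0.53 for Ugt1a1, -0.43 to 0.14 for Ugt1a10, -0.07 to 0.39 for Ugt1a9 and -0.054 to 0.44 for Ugt2b36. The cause of these changes was not tested, beyond the fewer libraries of the subsets.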

Other observations

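Enzymes that prepare drugs for conjugation were not past the threshold either. The 14 tested hydrolysis and reduction enzymes had a median log2 difference of 0.18, and 5 of them had groups that did not overlap. Of the 5, only Ces1f was lower in knockout. Among all genes tested the groups did not overlap in 16.6%, in either direction. Nqo1, a quinone reductase regulated by NRF2, was at 28.1, 22.5 and 23.6 FPKM in wild-type and 38.9, 48.8 and 33.4 FPKM in knockout livers (0.68, limma adjusted p = 0.231). The carboxylesterases Ces2a and Ces2e differed by 1.0 and 0.71 (adjusted p of 0.177 and 0.16), and Ces1f differed by -1.30 (0.247). The 10 tested genes listed as markers of the drug-response factors, NRF2 among them, had a median of 0.16, with 6 above 0 and 4 below. The cytochrome P450 genes Cyp3a13, Cyp3a11 and Cyp4a14 were at 0.73, -0.60 and 1.27 (adjusted p of 0.248, 0.33 and 0.395). Some genes of that list are not phase I enzymes. Of these, Srxn1, Txnrd1, Tiparp and Hmox1 were at 0.69, 0.034, -0.32 and -1.16 (adjusted p of 0.517, 0.954, 0.722 and 0.421).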
